A study of Mus musculus with 2 samples.

Results

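The Mir379-Mir410 cluster is a row of microRNA hairpins in the imprinted Dlk1-Dio3 domain of mouse chromosome 12. All microRNA entries of the deposited gene tables that GENCODE places between Mir379 and Mir3072 were taken as members, which gave 38 of 1973 microRNA genes. They span 38.9 kb, from 109709060 to 109747960 on assembly mm10. The measurements were small RNA libraries, with inserts below 30 bases, from the whole livers of 2 pups of strain B6NCrl on postnatal day 0. Both pups came from 1 pregnant female and their sex was not collected. Each liver gave 1 library, so the design is 1 group of 2 animals with no treatment and no second tissue or age.

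Genes of this cluster are read from the chromosome inherited from the mother, as one long run of non-coding transcription from which the hairpins are cut. A microRNA binds messenger RNAs mainly through its seed, the bases from position 2 to position 8 of the mature strand, and lowers their translation and stability. The cluster is found in placental mammals, is best known for its activity in brain, and in mouse is known to be needed for the switch of the newborn liver to making its own glucose. Some of its RNAs, those of the Mir376 group among them, are known targets of adenosine-to-inosine editing, which changes the letters of a read.

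Pup 1 had 3422622 reads on the strand of a microRNA gene and pup 2 had 4538427. Levels are counts per 1000000 of these reads (CPM), with mean ± SD over n = 2 pups. A gene with a count of 0 could have reached 0.877 CPM in pup 1 and 0.661 CPM in pup 2, the level of 3 counts. Confidence intervals (95%) reflect counting error alone and treat every read as independent. Copies made by PCR are not independent molecules, so the intervals can be too narrow. Reads that mapped to several loci, 25.2% and 24.7% of all reads, belong to no gene here. The hepatocyte microRNA Mir122 was the highest gene at 342309 and 354939 CPM, and all 4 hepatocyte markers were detected. Of 7 neural markers with an entry, 2 were detected and the sum was 102 and 111 CPM, with Mir9-2 and the 3 Mir124a genes at 0. Muscle markers summed to 136 CPM in pup 1 and 1008 CPM in pup 2, nearly all of it Mir206, while Mir1a-1 and the Mir133a genes were at 0. Mir9, Mir124a, Mir1a and Mir133a are each annotated at several loci. Reads that fit several of these loci belong to no gene here, so a 0 for them does not show absence. Blood cell, endothelial and mesenchymal markers were present in both livers, with sums of 5309 and 5150.0 CPM (erythroid), 8723 and 8010.3 CPM (leukocyte), 65978 and 69174 CPM (Mir126a) and 14984 and 15778 CPM (mesenchymal). The part of these cells in the cluster values was not tested. In whole liver, fewer cells that express a microRNA and less of it per cell cannot be told apart. Counts of the pups over 393 genes gave a chi-square of 50.2 per degree of freedom, so the libraries are not 1 library deposited again.

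The hairpins at the head of the cluster show how a member is built. They are given 5′ to 3′ from RefSeq on GRCm38.p6, the assembly also called mm10, with the mature strands of both arms in capitals. Mir379 lies at chr12:109709060-109709125 and Mir411 at chr12:109710175-109710256, both on the plus strand.
Mir379: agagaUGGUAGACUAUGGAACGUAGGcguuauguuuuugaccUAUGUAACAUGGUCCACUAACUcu
Mir411: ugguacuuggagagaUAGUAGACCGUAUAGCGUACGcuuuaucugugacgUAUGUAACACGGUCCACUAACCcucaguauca
Their 3′ arms share the seed AUGUAAC, while their 5′ arms have the seeds GGUAGAC and AGUAGAC. The counts cover a whole hairpin and do not tell the arms apart.

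The mature strands of the most abundant members are shown next because these hairpins hold most of the cluster's counts, with the seed in capitals.
miR-379-5p: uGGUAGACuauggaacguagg
miR-379-3p: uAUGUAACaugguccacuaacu
miR-411-5p: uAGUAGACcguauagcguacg
miR-411-3p: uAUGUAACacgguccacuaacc
miR-376a-5p: gGUAGAUUcuccuucuaugagu
miR-376a-3p: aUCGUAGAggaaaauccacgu
miR-409-5p: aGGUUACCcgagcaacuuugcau
miR-409-3p: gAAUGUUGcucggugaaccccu
miR-487b-5p: uGGUUAUCccuguccucuucg
miR-541-5p: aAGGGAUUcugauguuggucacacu
miR-541-3p: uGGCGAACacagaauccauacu
miR-369-5p: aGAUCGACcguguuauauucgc
miR-369-3p: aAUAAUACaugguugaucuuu
miR-154-5p: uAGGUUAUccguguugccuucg
miR-154-3p: aAUCAUACacgguugaccuauu
RefSeq held 69 mature sequences for 37 of the members, 19 to 25 bases long, with 64 distinct seeds. Gm27379 was not matched. Only 1 arm was listed for 5 members, Mir376c, Mir453, Mir485, Mir487b and Mir539. An arm that was not listed is missing from the strands printed here and from all comparisons of mature sequences. Only 5 seeds were shared by more than 1 of these sequences, so the members carry mostly different seeds.

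The newborn liver expressed most of the cluster, at levels that ran from a few reads to those of the leading liver microRNAs. Member counts together came to 8.93% of the gene-strand total in pup 1 (305784 counts, exact Clopper-Pearson interval 8.90 to 8.96%). In pup 2 they came to 9.37% (425214 counts, 9.34 to 9.40%). The sum includes opposite-strand counts of the 4 minus-strand members, 75083 in pup 1 and 94425 in pup 2, which the total does not. These percentages are therefore not strict shares, and the intervals are approximate. The mean was 9.15% ± 0.308 (SD, n = 2), and 8.73% with counts made without regard to strand in sum and total. It was 14.1% when Mir122 was left out of the total and 5.10% of all reads, those on no gene included. Of 38 members, 33 (86.8%) had 10 or more reads in each library and are called detected below, against 16.0% of all genes in the table. A mean of at least 1000 CPM was reached by 15 members (39.5%), against 4.16% of all genes. A further 16 members lay between 113 and 851 CPM. Among the 100 highest genes of the table were 18 members, and 10 of these were among the 50 highest. Ranks and shares of genes rest on uniquely mapped reads. Reads that fit several loci are credited to no gene, so genes with copies at several loci can stand too low here. Genes outside the cluster kept their gene-strand counts in these comparisons. The minus-strand members held 45.0% and 44.1% of all opposite-strand counts, so other genes have such reads that were not credited. With the annotated strand for every member, 29 members were detected and 11 reached 1000 CPM.

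**Figure D1:**
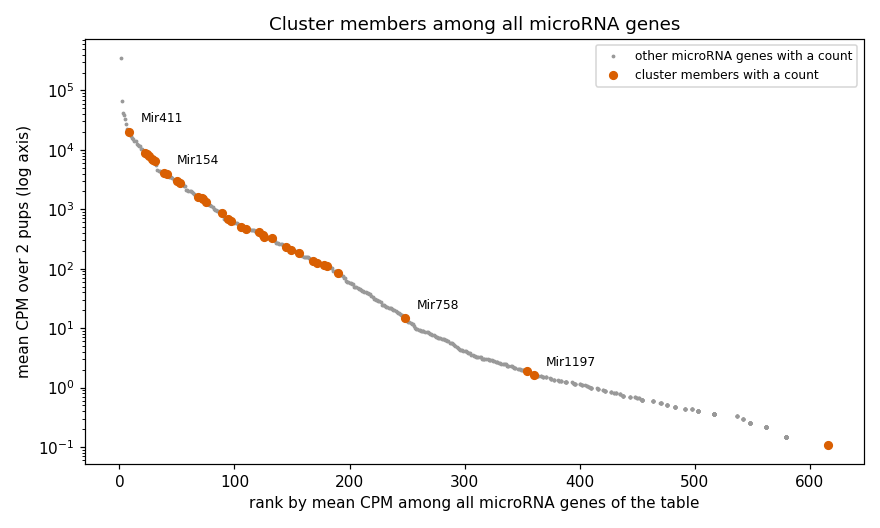
Mean CPM over 2 pups (log axis) against rank for all microRNA genes with a count, with cluster members in orange. Mir411 is the only member among the 10 highest genes, Mir758 stands at rank 248, and the members with a few counts lie at the right.

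Mir411 led the cluster, with 18348 CPM in pup 1 and 22289.9 CPM in pup 2, a mean of 20319 ± 2787 CPM at rank 8 of the whole table. It was the highest member in both livers and held 20.5% and 23.8% of the cluster's counts. Mir379, which lies 1115 bases before it and is known in liver for a part in the control of secreted lipid, had 8307 and 8796 CPM. The ratio of Mir411 to Mir379 was 2.21 in pup 1 and 2.53 in pup 2. Read counts of these neighbours with similar hairpins thus differed by more than the spread between the pups. The marker Mir541 had 7167 and 6519 CPM. All 3 markers named with the cluster (Mir379, Mir411 and Mir541) were therefore among its 6 highest members.

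Next to Mir411 stood 6 members of close levels, between 6561 and 8963 CPM on average. Gm25252, the entry at the place of Mir376a, had 9359 CPM in pup 1 and 8567 CPM in pup 2. Gm24321, the entry at the place of Mir409, had 8179 and 7567 CPM. Mir487b, a member of the group of hairpins related to Mir154, had 6889.7 and 6979 CPM, nearly the same in both livers. Mir369, whose 3′ strand is known for binding AU-rich elements of messenger RNAs, had 6315 and 6808 CPM. Within this group the order was mostly not resolved. Gm25252 and Mir379 were not separated beyond their SDs, nor were Mir379 and Gm24321, Mir487b and Mir541, or Mir541 and Mir369, while Gm24321 and Mir487b were.

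Below this group the levels fell by a factor of 1.62 to Mir154, the founding member of its hairpin family, at 4084 and 3997 CPM. Mir382 followed at 3812 and 3896 CPM, a small gap that still exceeded the spread of both genes. Mir299b, the entry at the place of Mir299a, had 2883 and 3144 CPM. Mir1193 had 2617 and 2957 CPM and was not separated from it. Mir376c had 1711 and 1517 CPM, Gm25750 at the place of Mir380 had 1516 and 1528 CPM, and Mir381 had 1305 and 1733 CPM. Mir543, at 1223 and 1449 CPM, closed the 15 highest members. These 15 were the same genes in both livers and held 93.7% ± 0.0364 of the cluster's counts. The 5 highest by mean CPM alone held 57.5% ± 0.474, while the 5 highest of each pup had 4 genes in common. The 23 members below the 15 highest held 6.30% in pup 1 and 6.35% in pup 2. Over all 33 detected members, 16 of the 32 steps from one rank to the next exceeded both SDs.

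**Figure D2:**
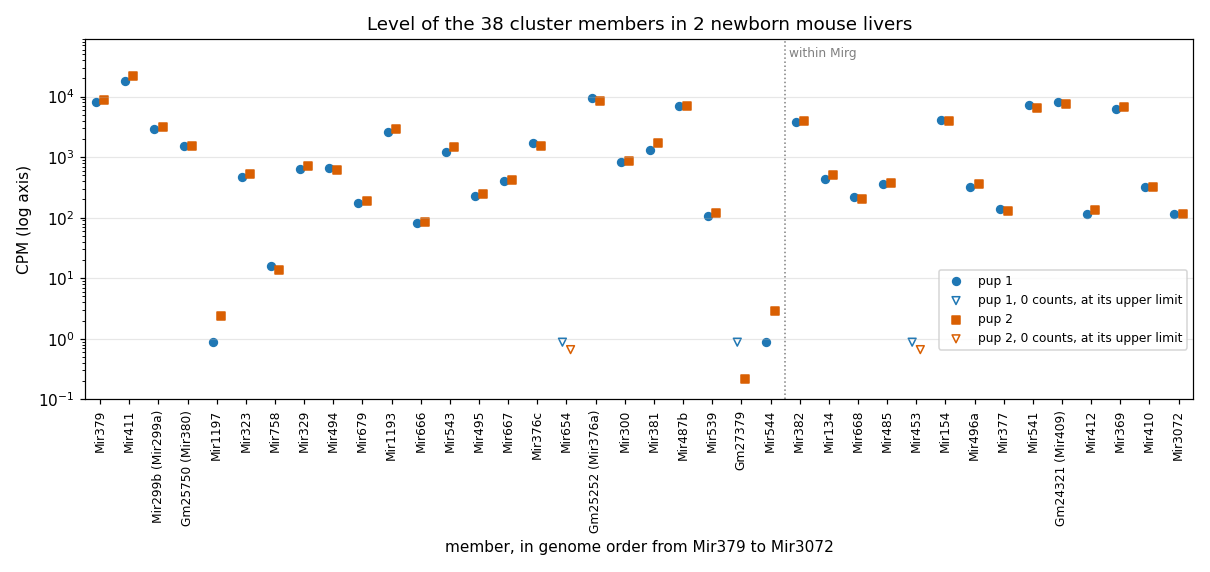
CPM of the 38 members (log axis) in genome order, with circles for pup 1 and squares for pup 2. Open triangles mark 0 counts and stand at the upper limit of that library, and the dotted line marks the start of the host transcript Mirg. The points of both pups lie close together for nearly all members, while neighbours along the chromosome differ widely.

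Several well-studied members were in the middle or lower part of the range. Mir134, which limits the growth of dendritic spines, had 429 and 508 CPM. Mir329, also studied in neurons, had 637 and 713 CPM, and Mir485, studied at synapses, had 360.3 and 369 CPM. Mir495 had 228 and 244 CPM, and its relative Mir543 was 5.66 ± 0.404 times higher. Mir410, after which the cluster is named at its far end, had 319.6 and 327 CPM. Mir377 stood at 138 and 129 CPM, close to Mir3072, the last member in genome order, at 115 and 117 CPM. Apart from Mir543, none of these reached 1000 CPM, and their values were close in the pups, with Mir134 and Mir329 higher in pup 2.

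The lowest detected member was Mir758, with 54 counts in pup 1 and 62 in pup 2, or 15.8 and 13.7 CPM. It lies 302 bases after Mir323 (464 and 529.9 CPM), which was 29.4 times higher in pup 1 and 38.8 times higher in pup 2. The 5 members below the detection limit were Mir1197 (3 and 11 counts), Mir544 (3 and 13 counts), Gm27379 (0 and 1 counts), and Mir654 and Mir453, which had 0 counts in both libraries. At these depths Mir654 and Mir453 could each have had up to 0.877 CPM in pup 1 and 0.661 CPM in pup 2. For Mir1197 and Mir544 the pups could not be told apart at this depth, with log2 intervals of -0.45 to 3.95 and -0.16 to 4.16.

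The GENCODE entries Gm25252, Gm24321, Gm25750 and Mir299b lie on the minus strand, and their values are the reads on the plus strand at their place. Each covers or overlaps a plus-strand hairpin with no row of its own, namely Mir376a, Mir409, Mir380 and Mir299a. Together they held 24.6% of the cluster's counts in pup 1 and 22.2% in pup 2. On their own minus strand, Gm25252, Gm24321 and Gm25750 had 0 counts in both libraries. The 34 plus-strand members likewise had 0 counts on the opposite strand, so reads of this cluster came from 1 strand apart from the few at Mir299b. Mir376b, which lies between Mir376c and Mir376a and has no row, was not analysed here.

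Mir299b alone had reads on its annotated strand, 7 in pup 1 and 8 in pup 2, against 9868 and 14269 on the plus strand. The hairpin of Mir299a (chr12:109710638-109710700, plus strand) is shown because it and Mir299b lie over each other on opposite strands and still share mature sequence, with the Mir299a mature strands in capitals.
Mir299a: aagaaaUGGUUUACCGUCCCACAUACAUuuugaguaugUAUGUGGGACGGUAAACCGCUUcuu
The hairpin of Mir299b, read from the minus strand, shares an unbroken stretch of 21 bases with it. All 18 bases of miR-299b-3p and all 21 bases of miR-299b-5p occur in the Mir299a hairpin. A read of these stretches alone fits both strands, and how such reads were counted is not given in the sources used here.

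Measured levels changed sharply over short distances. Ligation and amplification depend on sequence, so differences between members cannot be told apart from library preparation. Hairpin starts were 671 bases apart at the median, and the closest were 94 bases apart. Mir679 (177 and 188 CPM) starts 94 bases before Mir1193, which was 15.3 ± 0.701 times higher. At the far end, Mir412 (113 and 136 CPM) lies between Gm24321 and Mir369 with its start within 131 bases of each of theirs. Gm24321 was 72.5 times higher than Mir412 in pup 1 and 55.7 times in pup 2, and Mir369 was 56.0 and 50.1 times higher. Mir410 starts 297 bases after Mir369 and was lower by a factor of 20.3 ± 0.732. The median difference between adjacent detected members was 2.63 on the log2 scale of mean CPM (32 pairs), beside 2.49 for all 528 pairs of detected members.

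Position itself went with level only weakly. Spearman's rho between mean level and distance from Mir379 was -0.13 and Pearson's r on log2(CPM + 1) was -0.03, as a description over 38 members that share their libraries. The first 10 kb, with 14 members, held 41.6% of the cluster's counts in pup 1 and 45.4% in pup 2. With Mir411 left out it held 26.5% and 28.4% of the rest. The 9 members from Mir667 to Gm27379 held 23.1% and 21.6%, the 7 from Mir544 to Mir154 held 9.96% and 9.58%, and the 8 from Mir496a to Mir3072 held 25.4% and 23.4%. GENCODE places 24 members before Mirg, the long non-coding RNA that starts at 109729764, and 14 within it. Of the 14, 9 overlap an exon of some Mirg transcript, among them Mir382, Mir134, Mir485, Mir369 and Mir410. The other 5, Mir453, Mir154, Mir496a, Mir541 and Gm24321, lie in Mirg introns. Detected members before Mirg had a median of 1093 CPM, those that overlap exons 324 CPM, and the 4 detected members in introns 5442 CPM. These medians rest on few genes and were not tested against each other.

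**Figure D3:**
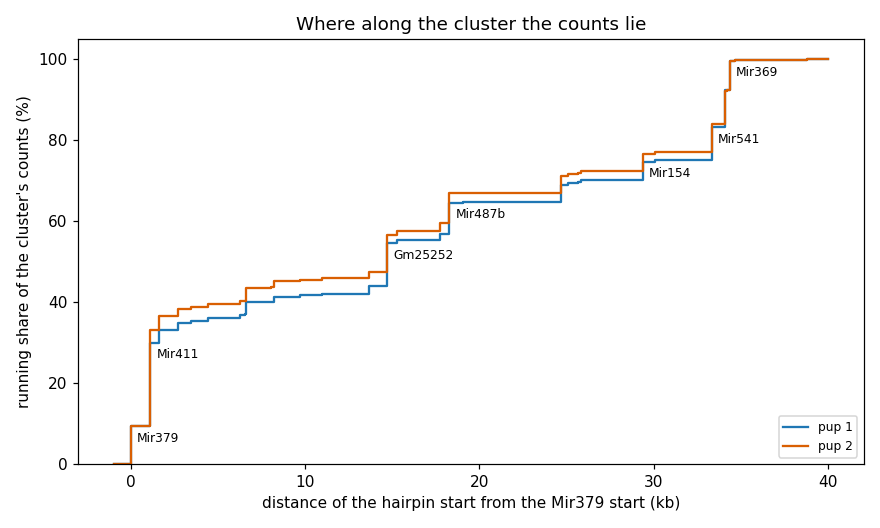
Running share of the cluster's counts (%) against the distance of each hairpin start from that of Mir379 (kb), 1 line per pup. The largest steps are at Mir379, Mir411, Gm25252, Mir487b, Mir541 with its close neighbour Gm24321, and Mir369. The line of pup 2 stays above that of pup 1 from Mir411 until the last steps.

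Hairpins of 35 members were matched in RefSeq, all but Mir666, Gm27379 and Mir544. Their GC content ran from 29.1% in Mir376c to 72.3% in Mir3072, with a median of 43.4%. It had a Spearman's rho of -0.32 with mean level over the 35 members. Predicted folding energy per base ran from -0.244 kcal/mol for the Mir376a hairpin to -0.668 kcal/mol for that of Mir299a, and its rho with level was 0.06. Ligation and amplification also depend on sequence, so such relations cannot be told apart from library preparation.

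Short motifs recur in some of the hairpins. The letters UACUUG, searched on the hairpin strand only, were in 10 of 35 member hairpins (28.6%) and in 1.82% of 825 other mouse hairpins of the same length range. AGUAUC was in 6 of 35 (17.1%), against 1.21% of the others. Both were in 4 members, Mir411, Mir494, Mir487b and Mir369, and neither was in any of 17 hairpins from the Meg3 and Rtl1-antisense side of the domain. The motifs were picked after reading the sequences and are a description. Hairpins with UACUUG ran from 0 CPM (Mir453) to 20319 CPM (Mir411), so the motif was present at both ends of the range. Their median was 745 CPM, against 468 CPM for the 25 without it. Hairpins with AGUAUC ran from 14.7 to 20319 CPM with a median of 3618 CPM, against 468 CPM for the 29 without it. These differences were not tested.

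Some members share a seed and not a level of the whole hairpin. The counts do not tell the arms apart, so the level of the strand with the seed is not known. The seed GGUAGAC is in miR-379-5p and in miR-1193-5p, and Mir379 was 3.17 and 2.98 times higher than Mir1193 in pups 1 and 2.
miR-1193-5p: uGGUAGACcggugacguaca
The seed GGUUGUC is in miR-494-5p and miR-410-5p, where Mir494 (672 and 605 CPM) was 1.97 ± 0.181 times higher than Mir410.
miR-494-5p: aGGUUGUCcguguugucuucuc
miR-410-5p: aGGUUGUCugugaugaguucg
The seed GGUUGAC is in miR-758-5p and miR-1197-5p, both at the low end of the cluster. The seed GGUUGCC is in miR-453, which had 0 counts, and in miR-496a-5p, whose hairpin had 318 and 365 CPM. Of the 64 seeds, 12 also occur in a mouse mature sequence other than the 69, for example that of miR-329-3p in miR-362-3p. For miR-299a-3p this is miR-299b-3p, from the minus strand of the same place.

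Shared stretches of sequence limit some counts. Apart from Mir299a and Mir299b, which lie over each other, stretches of 20 bases shared with a hairpin at another place were found in Mir411 and Mir758, which share them with each other, and in Mir376c and Mir487b, which share them with Mir376b. These 4 members held 30.2% of the cluster's counts in pup 1 and 32.9% in pup 2. Neither mature strand of Mir411 shares 16 bases with a hairpin at another place. Such a stretch of 16 bases was shared by miR-376c-5p with Mir376b, and by miR-300-3p and miR-381-3p with each other's hairpins. Mir381 was 1.58 and 1.98 times higher than Mir300 (825 and 877 CPM).
miR-376c-5p: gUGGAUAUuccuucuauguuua
miR-300-3p: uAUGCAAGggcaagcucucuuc
miR-381-3p: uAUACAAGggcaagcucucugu

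The pups were next set against each other member by member. With 1 library per pup this compares the libraries and not conditions, and it has no replicate check. An exact binomial test on each gene asked only whether counts differed beyond counting error, with Benjamini-Hochberg adjustment at 0.05 over all 393 genes with at least 10 counts. That test called 30.8% of the 393 genes in either direction. Of 35 members tested, 13 were higher in pup 2 (37.1%), where 16.0% of all tested genes were. Lower in pup 2 were 5 members (14.3%), where 14.8% of all tested genes were. Depth differed, as 32 of the 35 members had at least 100 counts in both libraries, against 225 of the 393 genes. The test calls smaller differences at higher counts, so these percentages are not compared at equal depth. The median log2 difference of the 35 members was 0.08 on the log2(CPM + 1) scale, beside 0.00 for all tested genes. In edgeR's negative binomial exact test, with a common dispersion estimated as if both libraries were replicates, 0 members were called, and 0 had an unadjusted p under 0.05. It called 0.509% of all tested genes.

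The members higher in pup 2 were led by Mir381, with a log2 ratio of 0.41 (exact interval 0.36 to 0.46). Mir411 followed with 0.28 (0.27 to 0.30) and Mir412 with 0.27 (0.08 to 0.46). The other 10 were Mir134, Mir543, Mir496a, Mir323, Mir1193, Mir329, Mir299b, Mir369, Mir300 and Mir379, with ratios from 0.08 to 0.25. The lowest were Mir376c at -0.17 (-0.22 to -0.12), Mir494 at -0.15 (-0.23 to -0.07) and Mir541 at -0.14 (-0.16 to -0.11). Gm25252 at -0.13 and Gm24321 at -0.11 were the other members called lower. Mir376c and Gm25252, the measured places of the Mir376 group, thus both lay lower in pup 2, while their ratio to each other was 5.47 and 5.65.

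**Figure D4:**
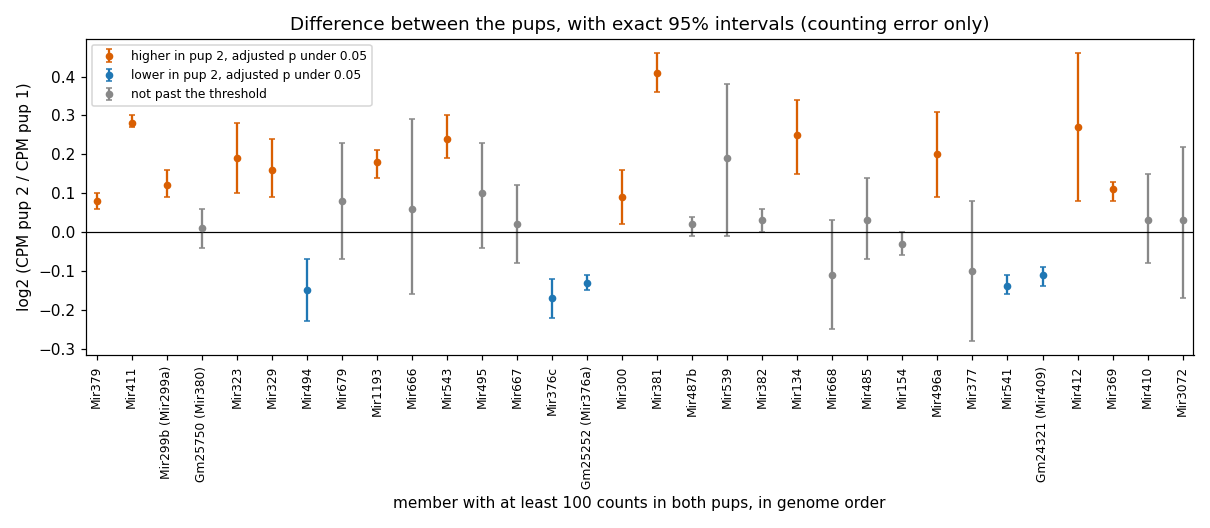
Log2 ratio of CPM in pup 2 over pup 1 for the 32 members with at least 100 counts in both, in genome order, with exact 95% intervals for counting error. All 32 lie between -0.17 and 0.41, and members called higher and lower are found at both ends of the cluster.

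The differences were small and left the order of the members almost as it was. All 32 members with at least 100 counts in both libraries were within 1.5-fold between the pups, as were 223 of all 225 such genes. The median size of their log2 ratio was 0.11, beside 0.12 for all 225 genes. Across the 33 detected members Pearson's r between the pups was 0.998 and Spearman's rho 0.995 on log2(CPM + 1), a description over genes, which are not replicates. The higher share of the cluster in pup 2 came mostly from 1 gene. The summed level rose by 4349.9 CPM from pup 1 to pup 2, of which Mir411 made up 3942 CPM and the other 37 members 408 CPM net. Without Mir411 the cluster's counts came to 7.10% and 7.14% of the gene-strand total. The muscle marker Mir206 was also higher in pup 2, at 136 and 1004 CPM, and its part in the difference between the pups was not tested. Members called lower went from 27088 to 24774 CPM in sum, and those called higher from 43783 to 50306 CPM.

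The other microRNAs of the domain lie before the cluster, around Meg3 and opposite the retrotransposon-derived gene Rtl1. The 19 plus-strand entries there held 2.94% of the microRNA counts in pup 1 and 3.18% in pup 2. The Mir379-Mir410 cluster held 3.03 and 2.95 times as much. This comparison is not like for like. The cluster's share and median include opposite-strand counts of its minus-strand members, while the other side holds plus-strand entries only. With the annotated strand for every member, the mean share was 7.01% for the cluster, against 3.06% for the Meg3 and Rtl1-antisense side. Of the 19, 14 were detected and 5 reached 1000 CPM, and the median of the detected genes was 333 CPM, against 675 CPM in the cluster. Their counts were more concentrated: Mir431 (10822 and 12859 CPM) and Mir127 (10500.1 and 10388 CPM) held 72.4% and 73.1% of them. Of 14 tested there, 5 were higher and 1 lower in pup 2, with a median log2 difference of 0.12. With 2 animals the contrast between the sides of the domain was not tested and is given by its values.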

How the data were processed

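Raw read counts per microRNA gene were deposited by the authors for each library, with mm10 and GENCODE M4 named in the text deposited beside them. Which aligner, counter and mismatch limits were used is not given in the sources used here. The count columns are without strand, gene strand and opposite strand, read from their totals. Gene-strand counts were used, and opposite-strand counts for the 4 minus-strand members, as CPM of all gene-strand counts. Uniquely mapped reads on no gene strand (8.87% and 9.92%) were left out. Identifiers were matched to GENCODE M21, also on mm10, for symbols and coordinates. The version differed for 13 of 38 members, whose bounds may have changed. Sequences are from RefSeq (GRCm38.p6), folded with RNAfold 2.7.2. Tests used scipy 1.17.1 and edgeR 4.0.16, and DESeq2 1.42.0 gave alternative size factors. A quasi-likelihood fit was not possible with 1 group. Printed in full are the 15 highest members, the markers, minus-strand and undetected members, the 3 highest and 3 lowest ratios, members that share a seed, and further members picked after their values were seen. Members and lists were chosen with earlier results of these data known.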

Additional observations from a re-analysis of the deposited data

Results flagged for a closer look

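Reads on the minus strand at Mir299b lie outside the values used for the cluster. They numbered 7 in pup 1 and 8 in pup 2, above the limit of 3 counts that a count of 0 allows. No other member had reads on the strand that was not used.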

How the results depend on the processing

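The cluster's share of 9.15% was 8.73% with counts made without regard to strand, 7.01% with the annotated strand for every member, 14.1% without Mir122 in the total and 6.26% without the 4 members that share 20 bases with a hairpin at another place. Chosen after seeing the data, it was 8.29% of uniquely mapped reads and 5.10% of all reads. The 5 highest members held 70.1% with annotated strands and 61.9% without shared members, instead of 57.5%. Of the 13 members higher and 5 lower in pup 2, edgeR's negative binomial test called 0 and 0. With annotated strands 3 were lower. The median log2 difference of 0.08 was 0.11 without Mir122, 0.09 with TMM factors and 0.06 with at least 50 counts. Without shared members, rho with level was -0.10 for position, -0.31 for GC content and -0.04 for folding energy. The CPM of the 17 members named by rule rose without Mir122 in the total, and 5 of them moved beyond their SD with counts made without regard to strand. The share of the Meg3 and Rtl1-antisense side was 4.70% without Mir122. Leaving out each pup gave 8.93 to 9.37% for the cluster, 2.94 to 3.18% for that side, 57.2 to 57.8% for the 5 highest, 33 to 35 members detected and 15 members at 1000 CPM. In the same way rho was -0.14 to -0.13 for position, -0.33 to -0.32 for GC content and 0.05 for folding energy. The other alternatives tried for these results kept the direction, with counts within 1.5 times. No paired analysis was possible because the series has 1 group. Depth limits Mir1197, Mir544, Gm27379, Mir654 and Mir453, which had at most 13 counts.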
